A study of Homo sapiens with 19 samples.

Results

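The change in gene expression between 48 and 96 h was examined in vit C-treated THP-1 macrophages, using the 2 arrays of each time point, 4 of the 19 arrays of the series. THP-1 is a human monocytic line grown from a leukaemia. All cells compared here, controls included, had been turned into macrophage-like cells with 30 nM PMA before the time course began. The vit C-treated cells then received 0.1 mM vitamin C and were lysed 48 or 96 h after its addition. Untreated (UT) cells, which were differentiated in the same way and given no vit C, were measured on 2 arrays at 48 h and 3 at 96 h and serve as the comparison without vit C. All samples are of 1 cell line. The study's methods call the arrays biological replicates, from flasks seeded in parallel, and left out samples whose RNA was too degraded.

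PMA activates protein kinase C, which switches on the AP-1 and NF-kappa-B transcription factors, stops the division of THP-1 cells and makes them adhere. Macrophages made in this way secrete cytokines, chemokines and matrix proteases soon after the stimulus. Mature macrophages also carry receptors for bacterial peptides, complement and antibodies, and display peptides on MHC class II molecules. Vitamin C is a cofactor of iron-dependent dioxygenases, among them the collagen and HIF prolyl hydroxylases and the histone and DNA demethylases.

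Signal is given throughout as the log2 of the scanner software's processed signal minus the 75th percentile of the same array, so that 0 marks the 75th percentile. The 75th percentile of the processed signal was 370.4 and 350.0 on the arrays of 48 h and 787.6 and 903.5 on those of 96 h. The software marked 62.1% and 58.6% of probes as well above background at 48 h and 69.8% and 72.8% at 96 h. Both arrays of 96 h shared a slide with no other sample, scanned on another day, while the 2 arrays of 48 h lay on 2 other slides, so slide, scan and time cannot be told apart in the vit C-treated cells. The UT arrays of 48 and 96 h did not use that slide, but UT 96 h replicates 2 and 3 lay on another slide than UT 96 h replicate 1 and both UT arrays of 48 h, so the UT change is partly mixed with slide. Replicate arrays correlated at r = 0.986 at 48 h and 0.994 at 96 h across 22626 genes, and arrays of the 2 time points at 0.956 to 0.959.

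Of 16 monocyte and macrophage markers, 15 were well above background on all 4 arrays and the mannose receptor MRC1 on none. Their summed linear signal, in units of the 75th percentile, was 588 to 654 at 48 h and 631 to 681 at 96 h. Markers of other cell types added up to less. The 9 fibroblast markers summed to 9.54 to 12.2 at 48 h and 7.21 to 7.85 at 96 h, with COL1A2, COL3A1 and POSTN not well above background on any of the 4 arrays. The 8 smooth muscle markers gave 15.5 to 16.7 and 15.4 to 16, with CNN1 and DES not above background. The lymphocyte markers summed to 3.92 and 5.12 on the arrays of 48 h and 1.72 and 1.97 on those of 96 h, the endothelial to 1.31 and 1.46, then 0.399 and 0.468, the granulocyte to 0.392 and 0.446, then 0.718 and 0.726, and the epithelial to 2.87 and 3.04, then 3.13 and 3.16. The 8 osteoclast markers, some of which macrophages also express, summed to 30.1 to 30.6 at 48 h and 17.7 to 19 at 96 h. The part of these shifts in other results was not tested. Of the defining markers, CD3D, MS4A1, TACSTD1 (now EPCAM), CDH1, KRT5, CDH5 and CEACAM8 were not above background on any of the 4.

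A gene was called when its log2 difference was at least 1 in size with a limma q of at most 0.05. By this rule 2937 of 22626 genes tested changed (13%), 1533 higher at 96 h (6.78%) and 1404 lower (6.21%). With 1 of the 4 arrays left out, 1823 to 2186 genes were called, and the counts fell by over 1.5 times without replicate 1 (1863) or replicate 2 (1823) of 96 h. A difference of 2 or more was seen in 268 of the higher and 389 of the lower genes. The split between directions depends on how the background is treated. With normexp background correction 2738 genes were called and 27.7% of them were higher at 96 h, against 52.2% here, and the median over all genes moved from 0.06 to -0.26. Without a filter on dim probes 5513 genes were called, of which 28.1% were higher. Among the 2937 genes, 2392 were well above background on all 4 arrays (1086 higher, 1306 lower), 341 on neither array of 48 h and 50 on neither array of 96 h. These last 2 sets entered the test through the time at which they were bright, so their q values describe them and are no independent support. The 2 times did not overlap for 74% of all genes tested, and no overlap was required of the genes named for the size of their change. In bulk RNA, more transcript per cell and more cells that carry it cannot be told apart.

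In UT cells 2928 genes were called over the same interval (12.9%), 1588 higher (7.02%) and 1340 lower (5.92%). The UT count was 1524 with normexp background correction, 1885 with slide as a fixed term and 568 in a fit of the UT arrays of 48 and 96 h alone, so the likeness of both totals depends on the model. Of the genes called in vit C-treated cells, 1412 were called in the same direction in UT cells, which is 48.1% of the first set and 48.2% of the second, and 19 were called in opposite directions. A UT difference of the same sign was measured for 89.3% of the genes called with vit C, against 71.2% of all genes tested. The difference between the 2 changes, tested as an interaction in limma, was called for 333 genes (1.47%), 185 with the higher change in vit C-treated cells (0.818%) and 148 with the lower (0.654%). The slide of the vit C-treated 96 h arrays enters this difference in full. In a fit of only the 9 arrays of these 4 groups 7 genes were called, and with the methods' t-test 12. Of the genes in the lists described here, that fit of 9 arrays called HAMP and ACTG2 and no other. Leaving out 1 array gave 53 genes (without vit C 96 h replicate 1), 117 (vit C 96 h replicate 2), 110 and 195 (vit C 48 h replicates 1 and 2), 152 and 107 (UT 48 h replicates 1 and 2), 1058, 313 and 844 (UT 96 h replicates 1, 2 and 3). At 96 h, 78% of the genes called with vit C lay outside the range of all 7 vit C-treated arrays from 8 to 48 h, against 39.7% of all genes tested. The 7 arrays include the 2 of 48 h by which these genes were called, so part of this excess follows from the call itself.

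**Figure D1:**
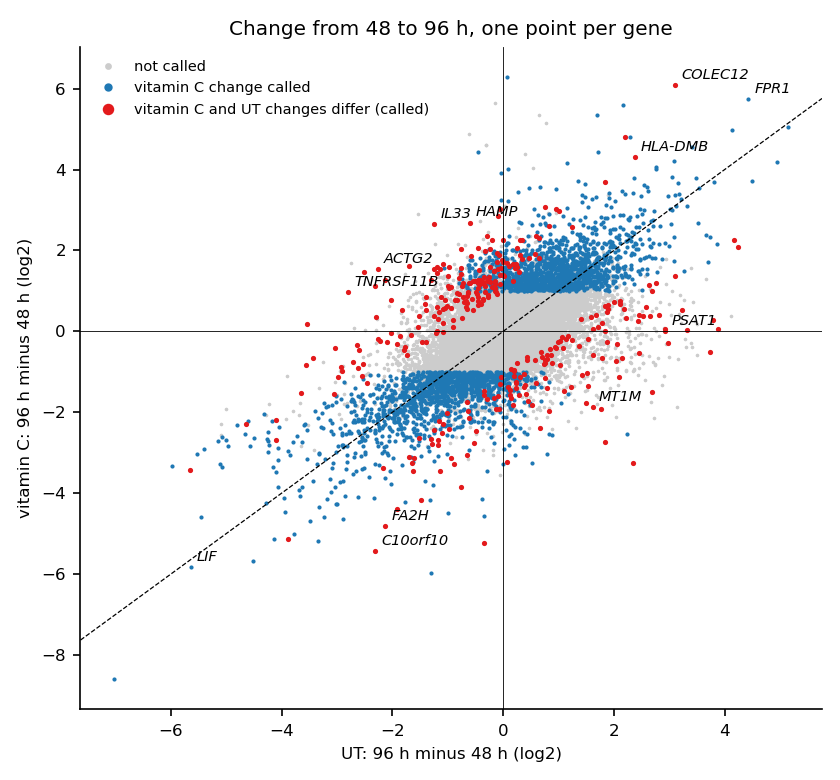
Log2 difference between 96 and 48 h in UT cells (horizontal axis) and vit C-treated cells (vertical axis), one point per gene tested. Blue points are the genes called in vit C-treated cells, red points the 333 genes called for the difference between the 2 changes, and the dashed line marks equal change. Most called points lie in the lower left and upper right, where both changes have the same sign, and HAMP, IL33, ACTG2 and MT1M lie where the signs are opposite.

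The largest rise among genes with a current or older symbol and a probe well above background on all 4 arrays was in FPR1, the receptor through which phagocytes sense bacterial formyl peptides. Its signal was -1.91 and -1.32 at 48 h and 4.29 and 3.98 at 96 h, a 53.7-fold rise (log2 difference 5.75 ± 0.29 SE, n = 2 arrays per time, limma q = 2.03e-08). In UT cells FPR1 rose by 4.43. MS4A4A, a surface protein of macrophages, went from -2.79 and -2.30 to 1.69 and 1.60 (log2 difference 4.18 ± 0.40, q = 9.00e-06). The chemokine receptor CCR2, which draws monocytes to CCL2, was not well above background on either array of 48 h and reached -1.01 and -1.34 at 96 h, at least 10.9-fold higher (q = 3.79e-04). The probes of CCR2 gave log2 differences from 1.47 to 5.61, and with normexp background correction the rise was 1.73, so its size is uncertain and the bound holds for the processing used here.

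Some complement and Fc receptor genes also rose. Of 21 tested members 9 rose, 2 fell and 10 were not called, where 6.78% of all genes tested rose and 6.21% fell. Of the 17 that were well above background on all 4 arrays, 7 rose and 2 fell. The list median was 0.81 (0.17 with normexp background correction), against 0.06 over all genes tested and 0.22 in UT cells. Among the members that rose were the 3 chains of C1q, the recognition molecule of the classical complement pathway. C1QB read -3.53 and -3.78 at 48 h and 0.43 and 0.28 at 96 h (log2 difference 4.01 ± 0.45, q = 3.34e-05). C1QA and C1QC were not well above background at 48 h and were at least 18.9-fold and 3.31-fold higher at 96 h. With normexp background correction the log2 differences were smaller, 2.49 for C1QB, 2.15 for C1QA and 0.43 for C1QC, the last not called. The 2 members that fell were ITGAX, the integrin chain CD11c (log2 difference -1.83, q = 4.68e-05), and the IgA receptor FCAR (-1.68, q = 0.0085), whose call was lost without vit C 96 h replicate 1 (-1.53, q = 0.0749).

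Among pattern recognition and scavenger receptors 8 of 28 rose and 1 fell (2 without vit C 96 h replicate 2), with a median of 0.44 (0.05 with normexp background correction). Over all genes tested 6.78% rose and 6.21% fell. Of the 28 receptor genes, 22 were well above background on all 4 arrays. CLEC7A, called higher, had a difference of -0.33 with normexp background correction. COLEC12, a scavenger receptor with a collagen-like stalk, was not well above background on either array of 48 h and read 0.39 and 0.37 at 96 h, at least 32.0-fold higher (q = 4.20e-07), though by a log2 difference of only 3.09 with normexp background correction. TLR7, a sensor of single-stranded RNA in endosomes, rose from -1.37 and -1.61 to 0.42 and 0.69 (log2 difference 2.04 ± 0.26, q = 9.05e-05), and by 2.41 in UT cells. The member that fell was OLR1, a receptor for oxidised lipoprotein, from -1.40 and -1.58 to -3.16 and -3.53 (log2 difference -1.86, q = 0.00114).

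Of the 15 macrophage markers tested 6 rose and none fell, with a median of 0.80 against 0.86 in UT cells. FCGR2A, an activating receptor for IgG, rose by 2.09 ± 0.23 (q = 3.27e-05) and EMR1 (now ADGRE1, the human counterpart of F4/80) by 2.08 ± 0.34 (q = 6.56e-04). The lysozyme gene LYZ rose by 2.05 ± 0.38 (q = 0.00186), a call not made with normexp background correction. CD14 and CSF1R, the receptors for lipopolysaccharide and M-CSF, had differences of -0.52 and -0.41 and were not called.

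In the S100 family, small calcium-binding proteins, 4 of 14 tested members rose and 3 fell, against 6.78% and 6.21% of all genes tested. S100A9, a subunit of calprotectin and a major protein of circulating monocytes, went from 0.93 and 0.98 to 4.49 and 4.50 (log2 difference 3.54 ± 0.45, q = 9.57e-05). S100A12 rose from -1.04 and -0.61 to 2.76 and 2.32 (3.37 ± 0.31, q = 6.24e-06). The groups did not overlap for either gene, which the rule that named them required. The UT differences were 3.53 and 3.10. The members that fell were S100A14 (-2.22), S100A16 (-1.45) and S100A3 (-1.33), of which S100A14 lost its call without vit C 48 h replicate 2 (-2.10) or vit C 96 h replicate 2 (-1.67). Haptoglobin (HP), a haemoglobin-binding plasma protein, rose from -4.23 and -4.04 to -0.43 and -0.46 (3.69 ± 0.27, q = 6.16e-07), and its rise was larger than the 1.85 in UT cells (difference of changes 1.84, limma q = 0.0228), a call lost in 5 of the 9 fits that left out 1 array of the 4 groups, with values from 1.62 to 1.94. Over all alternatives the rise of HP with vit C lay between 1.94 and 3.79.

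Both chains of HLA-DM, the heterodimer that loads peptides onto MHC class II molecules, rose. HLA-DMB was -3.26 and -3.44 at 48 h and 1.12 and 0.81 at 96 h, a 19.9-fold rise (log2 difference 4.31 ± 0.23, q = 3.18e-08). HLA-DMA, the partner chain, rose from -2.34 and -2.22 to -0.30 and -0.43 (1.92 ± 0.23, q = 5.12e-05). No array of 96 h overlapped those of 48 h for either chain. This was required of HLA-DMB by the rule that named it, and it held for 74% of all genes tested. HLA-DMB and HLA-DMA were the only 2 of 19 tested genes of the class II and CD1 list to be called, against 6.78% of all genes tested called higher. The list median was 0.19, and -0.28 with normexp background correction. CIITA, the master regulator of class II genes, had a difference of -0.62 and CD74, the invariant chain, of 0.36, neither called. Both HLA-DM chains and CD1C were called for a higher change in vit C-treated than in UT cells, by 1.94 (HLA-DMB, q = 0.0088), 1.35 (HLA-DMA, q = 0.0441) and 1.93 (CD1C, q = 0.0121), the last with a fall in UT cells (-1.39) and a difference of 0.53 with vit C. These were 3 of the 19 genes, against 0.818% of all genes tested. HLA-DMA was not called with the slide as a random block or with the replicate number as a block. With 1 of the 9 arrays left out these 3 calls were lost in 1 (HLA-DMB, without vit C 96 h replicate 1, 1.79), 7 (HLA-DMA, 1.25 to 1.44) and 2 fits (CD1C, without vit C 48 h replicate 1, 1.83, or vit C 96 h replicate 1, 1.81).

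**Figure D2:**
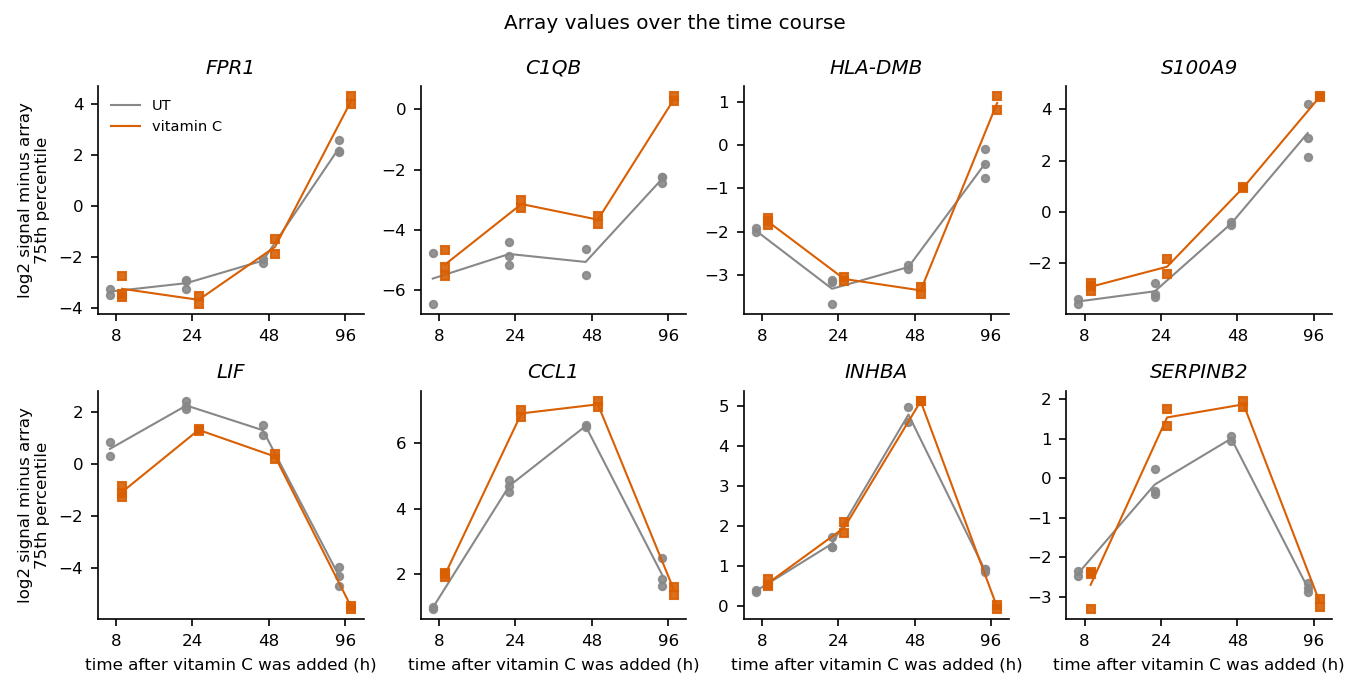
Array values of 4 genes that rose (top row) and 4 that fell (bottom row) between 48 and 96 h, as log2 signal minus the array's 75th percentile, against time after vit C was added, with UT cells in grey and vit C-treated cells in orange. Points are single arrays and lines join group means. In vit C-treated cells the 4 rising genes have their highest values at 96 h, and CCL1, INHBA and SERPINB2 peak at 48 h before they fall.

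Many cytokine genes fell. Of the 25 cytokine genes of the list that were tested 16 were lower at 96 h and none higher, with a median log2 difference of -1.68 against -1.05 in UT cells, where 13 fell and 2 rose. IL33, an alarmin cytokine that is not in the list, rose by 2.66 (q = 3.26e-04). LIF, a cytokine of the IL-6 family, had the largest fall among genes with a current or older symbol measured on all 4 arrays, from 0.19 and 0.38 to -5.49 and -5.59, or 56.6-fold (log2 difference -5.82 ± 0.25, q = 4.36e-09). Over all alternatives the difference lay between -5.92 and -3.74 for LIF and between -5.80 and -5.52 for CCL1. The rank and size given for LIF hold for the processing used here. IL1A, which encodes interleukin-1 alpha, went from 1.21 and 0.79 to -3.05 and -3.11 (-4.08 ± 0.78, q = 0.00229). Its natural antagonist IL1RN went from 4.69 and 4.31 to 1.13 and 0.84 (-3.52 ± 0.21, q = 8.97e-08). For these 3 cytokine genes the UT differences were -5.65, -3.67 and -2.72.

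Chemokines were mixed, with 12 of 28 lower and 4 higher (1 without vit C 48 h replicate 1 and 2 without vit C 96 h replicate 1) and a median of -0.76 (-0.82 in UT cells). Over all genes tested 6.78% rose and 6.21% fell with all arrays. The risen share of the chemokines without vit C 48 h replicate 1 was below that of all genes. CCL1, a ligand of CCR8, fell 51.2-fold, from 7.08 and 7.27 to 1.62 and 1.38 (-5.68 ± 0.24, q = 3.62e-09). CCL20, which attracts cells with CCR6, fell from 5.81 and 6.03 to 3.18 and 3.00 (-2.83 ± 0.29, q = 1.37e-05), and IL8 (CXCL8), the main neutrophil attractant, from 5.80 and 6.47 to 3.49 and 2.74 (-3.02 ± 0.80, q = 0.0170). IL8 lost its call without vit C 48 h replicate 2 (-2.69) or either array of 96 h (-3.40 and -2.65). PPBP, a platelet chemokine, rose from -2.08 and -1.97 to 0.09 and -0.11 (2.01 ± 0.42, q = 0.00415). PF4 and CCL18 were also called higher, but were not well above background at 48 h, and with normexp background correction their differences were -0.07 and -0.47.

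INHBA, TGFB3 and AREG, named for the size of their falls, encode secreted growth factors. INHBA, the subunit of activin A, was 5.12 on both arrays of 48 h and -0.06 and 0.02 at 96 h, a 35.4-fold fall (-5.14 ± 0.17, q = 7.44e-10). TGFB3, one of the TGF-beta ligands, went from -0.54 and -0.85 to -5.30 and -5.26 (-4.59 ± 0.18, q = 2.52e-09). AREG, which encodes the EGF receptor ligand amphiregulin, went from 5.18 and 5.25 to 1.00 and 0.96 (-4.24 ± 0.31, q = 8.22e-07). In UT cells these 3 genes had differences of -3.89, -5.46 and -4.29. The EGF receptor ligands EREG (-4.13) and HBEGF (-3.00), named here after their values were seen, were called lower as well.

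Matrix protease and inhibitor genes fell in most cases. In this list 17 of 26 tested were lower and none was higher (MMP2 came nearest, 1.14 at q = 0.0570, and 1 gene of the list was called higher without vit C 48 h replicate 2 or vit C 96 h replicate 2), with a median of -2.10 (-2.17 in UT cells, where 16 fell). SERPINB2, a plasminogen activator inhibitor made by macrophages, went from 1.95 and 1.79 to -3.05 and -3.25 (-5.02 ± 0.29, q = 6.95e-08). Tissue plasminogen activator (PLAT), which cleaves plasminogen, read -1.56 and -1.68 at 48 h and -4.94 and -6.43 at 96 h, where 1 of 2 arrays was well above background (-4.07 ± 0.45, q = 3.28e-05). Over all alternatives the difference of PLAT lay between -4.81 and -2.19. Both genes were lower on each array of 96 h, which was required of SERPINB2 by the rule that named it. Of the 17 coagulation and plasminogen genes tested, which include both, 8 fell and none rose.

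Immediate early genes, which respond first to PMA and growth factors, fell too. Of 29 AP-1 and immediate early genes 17 were lower and 1 higher, with a median of -1.20 (-0.85 in UT cells, where 13 fell). EGR2 went from 4.19 and 4.37 to 0.63 and 0.68 (-3.63 ± 0.29, q = 1.67e-06). DUSP2, a phosphatase that switches off ERK, went from 3.04 and 2.88 to -0.31 and -0.53 (-3.38 ± 0.24, q = 6.16e-07). The member that rose was JUN itself, from 5.22 and 5.12 to 6.26 and 6.36 (1.14 ± 0.27, q = 0.0096), a call lost without vit C 48 h replicate 2 or vit C 96 h replicate 2 (both 1.09), while FOS had a difference of -0.33 and was not called. Among NF-kappa-B feedback genes 7 of 20 fell and none rose, among them PTGS2, the inducible cyclooxygenase (-3.02 ± 0.35, q = 4.70e-05), BIRC3, an inhibitor of apoptosis (-2.22 ± 0.31, q = 2.35e-04), and the surface protein CD83 (-2.28 ± 0.18, q = 1.16e-06), which fell by 1.08 in UT cells (difference of changes -1.21, q = 0.0241, lost in 5 of 9 fits with 1 array left out, -1.27 to -1.09).

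The promoters of the genes that fell were searched for a loose spelling of the AP-1 site that PMA acts through. It was TGANTCA, which allows any base in the middle, read on both strands. The window was the 250 bases before the start in RefSeq's GRCh38.p14 annotation, and a gene with several starts counted once if any held a match. Of 675 genes called lower that had a promoter listed there, 91 held a match (13.5%), against 754 of the 11533 tested genes with one (6.54%), 61 of 847 genes called higher (7.2%) and 8.06% of all 27305 genes in the table. At least 1 match was found in 7 of the 18 cytokine genes with a promoter (38.9%) and in 4 of the 13 protease genes (30.8%), counted over the whole lists whether or not a gene fell. Promoters of 3 genes that fell are shown because each holds 1 match, in capitals. MMP10, a stromelysin (log2 difference -3.03, q = 6.78e-04), and IL11, a cytokine of the IL-6 family (-3.29, q = 3.34e-05), were named after their values were seen. The windows are chr18:63887455-63887704 (plus strand) for SERPINB2, chr11:102780629-102780878 (minus strand) for MMP10 and chr19:55370464-55370713 (minus strand) for IL11.
SERPINB2: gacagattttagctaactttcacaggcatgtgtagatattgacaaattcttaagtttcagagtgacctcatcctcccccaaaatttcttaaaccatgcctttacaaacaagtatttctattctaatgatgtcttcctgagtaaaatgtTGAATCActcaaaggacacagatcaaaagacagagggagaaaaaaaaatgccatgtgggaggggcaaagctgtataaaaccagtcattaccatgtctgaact
MMP10: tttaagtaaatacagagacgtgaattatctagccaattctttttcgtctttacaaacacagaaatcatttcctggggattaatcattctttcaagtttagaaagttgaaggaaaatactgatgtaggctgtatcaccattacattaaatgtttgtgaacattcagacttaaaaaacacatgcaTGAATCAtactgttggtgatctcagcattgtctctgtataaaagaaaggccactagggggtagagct
IL11: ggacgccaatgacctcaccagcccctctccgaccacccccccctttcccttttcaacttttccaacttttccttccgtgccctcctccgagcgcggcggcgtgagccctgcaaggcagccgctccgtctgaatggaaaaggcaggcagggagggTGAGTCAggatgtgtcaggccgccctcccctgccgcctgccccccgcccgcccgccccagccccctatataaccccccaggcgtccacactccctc
A match of these letters describes the sequence and shows no binding.

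**Figure D3:**
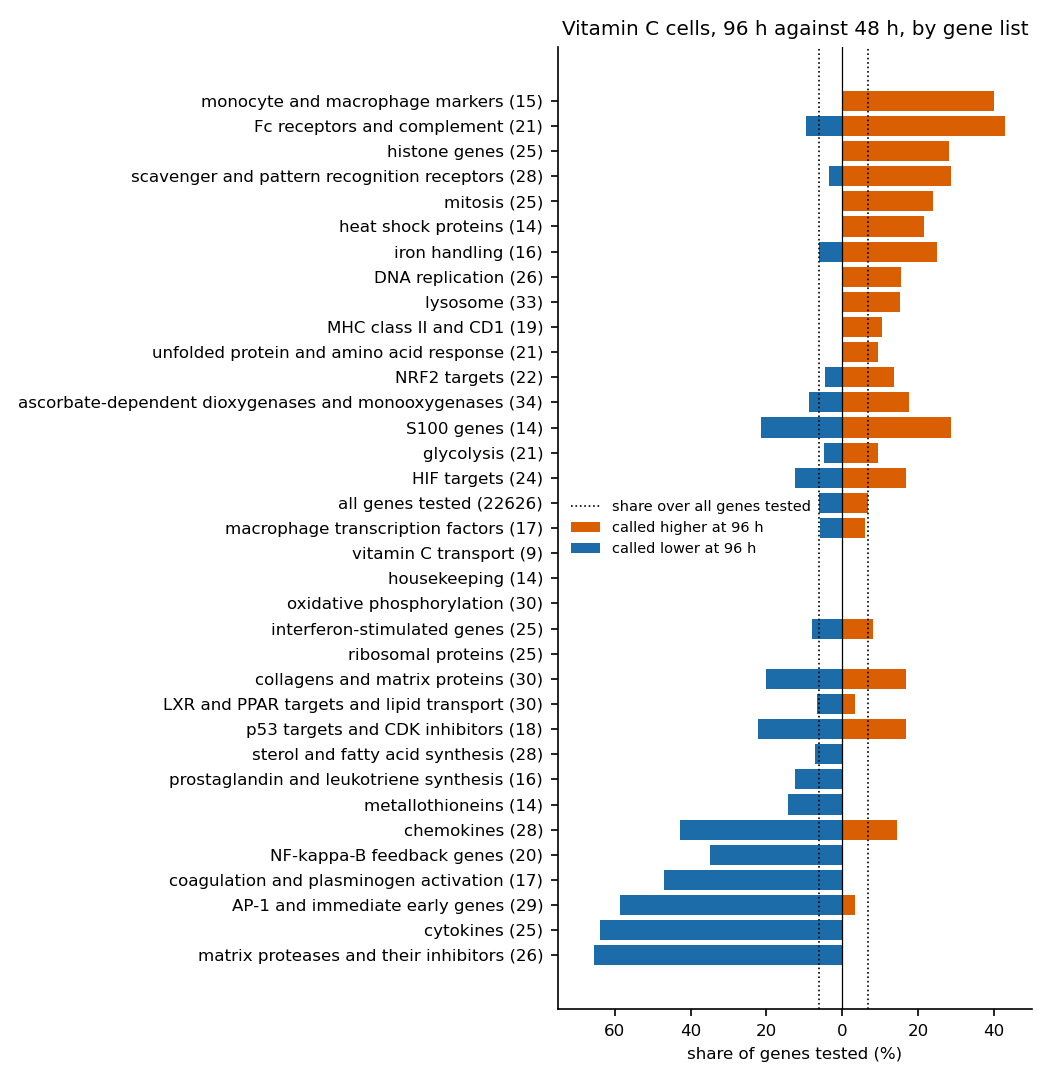
Share of the genes tested in each list that were called higher (orange, to the right) or lower (blue, to the left) at 96 h in vit C-treated cells, with the number tested in brackets and the lists ordered by the difference. Dotted lines mark the shares over all genes tested, 6.78% higher and 6.21% lower. Matrix proteases, cytokines and immediate early genes reach furthest to the left, and macrophage markers and the Fc receptor and complement list furthest to the right.

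A large fall was measured in C20orf123 (now OCSTAMP), which is required for the fusion of osteoclasts and macrophages into multinucleated cells. Its signal was 2.77 and 2.80 at 48 h and -5.22 and -6.41 at 96 h, where 1 of 2 arrays was well above background (log2 difference -8.60 ± 0.32, q = 1.65e-09), so its size rests partly on a value near background. In UT cells it fell by 7.03. TM7SF4 (DCSTAMP), the partner fusion protein, went from 3.80 and 3.85 to 1.79 and 1.75 (-2.05 ± 0.25, q = 6.58e-05), and by -1.92 in UT cells. Both genes were lower on both arrays of 96 h, and the 2 times did not overlap for 74% of all genes tested. The osteoclast genes ACP5 (0.81), CTSK (0.77) and NFATC1 (0.17) were not called, and CALCR and TNFRSF11A, the calcitonin receptor and RANK, were not well above background on any of the 4 arrays.

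Other large falls had no list of their own. FA2H, which hydroxylates fatty acids of sphingolipids, went from 2.58 and 2.71 to -2.15 and -2.20 (-4.82 ± 0.17, q = 1.36e-09), more than the -2.13 of UT cells (difference of changes -2.70 ± 0.24, q = 9.52e-05). KIAA1199 (CEMIP), which binds and degrades hyaluronan, went from 4.25 and 4.06 to -0.62 and -0.45 (-4.69 ± 0.25, q = 3.31e-08). C10orf10 (DEPP1), a FOXO target, went from 0.77 and 0.90 to -4.86 and -4.35 (-5.44 ± 0.50, q = 5.46e-06). RCAN2, an inhibitor of calcineurin, stood on the arrays under 2 names, RCAN2 and DSCR1L1, and both gave -4.28. Falls to below background at 96 h were at least 11.6-fold for COL5A3, 10.6-fold for the immediate early gene EGR4, 9.91-fold for TRIM54 and 9.15-fold for ANKRD1. These bounds hold for the processing used here, since with normexp background correction the log2 differences were -2.01, -1.95, -1.69 and -1.98.

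Calls of cell cycle genes depended on single arrays, and without some of them the shares that rose in the mitosis, DNA replication and p53 lists were near or below the 6.78% of all genes tested. Of 25 mitosis genes 6 were higher and none lower, but 1 was called without vit C 48 h replicate 2 or either array of 96 h, and without vit C 48 h replicate 1 there were 5. The list median was 0.65, and in UT cells 20 were higher with a median of 1.59. The interaction was called, with a lower change in vit C-treated cells (0.654% of all genes tested), for 3 of them, CCNB2 (-1.35), PLK1 (-1.25) and CENPF (-1.24), with differences of 0.54, 0.65 and 0.36 with vit C, none of them called. Another probe of CCNB2 gave -1.42 with vit C. These 3 calls were lost in 5, 5 and 6 of the 9 fits that left out 1 array, with values from -1.40 to -1.06. Among 26 DNA replication genes 4 rose (2 without vit C 48 h replicate 2 or vit C 96 h replicate 2, and 1 without vit C 96 h replicate 1), including GINS1 (1.61 ± 0.29, q = 0.00145, but 0.63 and not called with normexp) and the thymidine kinase TK1 (1.04 ± 0.16, q = 5.04e-04, and 0.95 without vit C 96 h replicate 1), and the list median was 0.41. TOP2A, the topoisomerase of dividing cells, rose from 1.71 and 0.98 to 2.89 and 3.07 (1.63 ± 0.44, q = 0.0189), but not without vit C 48 h replicate 2 (1.27) or either array of 96 h (1.73 and 1.54). Histone genes, 7 of 25 higher and none lower (3 without vit C 48 h replicate 1 and 4 without either array of 96 h), had a median of 0.59 (0.88 in UT cells). Of 18 p53 targets and CDK inhibitors 3 rose and 4 fell, and only 1 rose without vit C 48 h replicate 1 or either array of 96 h. In this list CDKN1C (p57) rose by 2.12 ± 0.25 (q = 5.85e-05) and CDKN1B (p27) by 1.17 ± 0.28 (q = 0.0105, lost without vit C 48 h replicate 1 or either array of 96 h, 1.08 to 1.20), whereas CDKN1A (p21) fell by 1.52 ± 0.25 (q = 7.79e-04). The p53-responsive genes PLK3 and GDF15 fell by 2.75 and 2.42, and CCNG1, also a p53 target, rose by 1.55 (q = 0.0257), a call lost without any 1 of the 4 arrays (1.32 to 1.78).

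Enzymes that use ascorbate were followed as a list of 34 tested genes, of which 6 rose and 3 fell with a median of 0.09, and 3 rose without vit C 48 h replicate 2 or either array of 96 h. Over all genes tested 6.78% rose and 6.21% fell, so the fallen share, and the risen share without those arrays, were near the background. PHYH, the peroxisomal phytanoyl-CoA hydroxylase, went from -0.66 and -0.77 to 0.88 and 0.87 (1.59 ± 0.25, q = 6.26e-04). P4HA1, a catalytic subunit of collagen prolyl 4-hydroxylase, went from -1.26 and -1.16 to 0.29 and 0.10 (1.41 ± 0.30, q = 0.00457), with a difference of 0.08 in UT cells, and its difference of changes was not called (1.33, q = 0.121). LEPREL1 (P3H2), a collagen prolyl 3-hydroxylase, fell from 5.75 and 5.78 to 2.48 and 2.60 (-3.22 ± 0.19, q = 6.95e-08), and in UT cells by 2.82. JHDM1D (KDM7A), a histone demethylase, fell by 1.52 ± 0.24 (q = 6.48e-04). Of 9 genes of vit C transport and recycling none reached a difference of 1 in size, SLC2A1 (GLUT1) with a difference of 0.06 and the dehydroascorbate reductase GSTO1 with -0.14.

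Collagens and matrix proteins went both ways, 5 of 30 higher and 6 lower, against 6.78% and 6.21% of all genes tested. Without 1 array as few as 2 were higher (vit C 96 h replicate 1, and 3 without either array of 48 h) and 3 lower (vit C 48 h replicate 2 or either array of 96 h). The risen share without vit C 96 h replicate 1 was near the 6.78% of all genes tested with all arrays. Versican (VCAN) rose by 2.05 ± 0.28 (q = 1.93e-04) and FBN2, a fibrillin, by 1.60 ± 0.21 (q = 1.57e-04). FGL2, also called higher, was not well above background on either array of 48 h and had a difference of -0.11 with normexp background correction. COL22A1, a collagen of tissue junctions, fell from -0.44 and -0.95 to -4.19 and -5.16 (-3.98 ± 0.33, q = 2.05e-06). In the sterol and fatty acid synthesis list 2 of 28 fell, a share near the 6.21% of all genes tested, and none rose, with SQLE, squalene epoxidase, from 6.23 and 6.35 to 4.48 and 4.59 (-1.76 ± 0.28, q = 6.41e-04). The other, STARD4 (-1.09), lost its call without vit C 48 h replicate 1 (-0.78) or either array of 96 h (-1.14 and -1.04). LPL, lipoprotein lipase, fell by 1.60 ± 0.24 (q = 3.52e-04) and ANGPTL4, its inhibitor, by 2.37 ± 0.29 (q = 7.58e-05). Lysosomal genes rose in 5 of 33 cases and fell in none (2 without vit C 48 h replicate 1 or vit C 96 h replicate 1, and 3 without vit C 96 h replicate 2, against 6.78% of all genes tested, so that the lowest share was at the background), among them ASAH1, acid ceramidase (1.77 ± 0.31, q = 0.00136), whose probes gave 0.42 to 1.77.

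HIF targets gave 4 of 24 higher (1 and 2 without replicates 1 and 2 of vit C 96 h) and 3 lower (1 without vit C 96 h replicate 2), shares that without those arrays were near or below the 6.78% and 6.21% of all genes tested, the fallen members being PFKFB4 (-2.17), ENO2 (-1.63) and BHLHB2 (BHLHE40, -1.63), of which PFKFB4 lost its call without vit C 96 h replicate 2 (-2.03) and ENO2 without vit C 48 h replicate 2 (-1.43) or vit C 96 h replicate 2 (-1.42). The nominal largest riser, the mitophagy gene BNIP3, rests on 1 array: it read -6.80 and 1.13 at 48 h, only the second well above background, and 3.65 and 3.25 at 96 h. Without the first of these arrays its difference was 2.32, and without the second 10.25. Interferon-stimulated genes gave 2 higher and 2 lower of 25, near the 6.78% and 6.21% of all genes tested. The higher, IFI44 (1.13) and RSAD2 (1.01), lost their calls without any 1 of the 4 arrays, and the lower were IFI6 (-1.94, q = 0.0019) and IRF7 (-1.49, q = 2.00e-04). NRF2 targets gave 3 of 22 higher (1 without vit C 48 h replicate 2 or vit C 96 h replicate 1) and 1 lower, SQSTM1, whose call was lost without any 1 of the 4 arrays (-1.31 to -1.23), with biliverdin reductase BLVRB at 1.23 ± 0.23 (q = 0.00204). The share of NRF2 targets that fell was below the 6.21% of all genes tested. The share that rose was below 6.78% without vit C 48 h replicate 2 or vit C 96 h replicate 1. The 25 ribosomal protein genes, 30 oxidative phosphorylation genes and 14 housekeeping genes held no member with a difference of 1 or more in size, so none could be called at any p, and their medians were 0.00, 0.06 and -0.05. RPS20 came lowest among the ribosomal genes with -0.75, while another of its probes gave 1.33.

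Metallothioneins are cysteine-rich proteins that bind zinc and copper, and their change differed between the 2 treatments. In vit C-treated cells the median of the 14 tested genes of the list, which also holds the zinc exporter SLC30A1 and the zinc sensor MTF1, was -0.64 with 2 called lower, and in UT cells it was 0.67 with 1 called higher and 1 lower. The interaction was called for 8 of the 14, all with the lower change in vit C-treated cells, against 0.654% of all genes tested. None of the 8 was called in the fit of only the 9 arrays. The count was 3 without vit C 96 h replicate 1, 4 without vit C 96 h replicate 2 or UT 48 h replicate 1, and 5 without either vit C array of 48 h or UT 48 h replicate 2. MT1A lost its call in 6 of the 9 fits (-1.33 with all arrays) and MT1B in 5 (-1.45). MT1M read 2.58 and 2.92 at 48 h and 0.93 and 0.83 at 96 h with vit C (-1.87 ± 0.35, q = 0.0022), and 0.54 and 0.65 at 48 h and 1.31, 2.85 and 2.46 at 96 h in UT cells. The difference of changes was -3.49 ± 0.48 (q = 0.0040). MT2A read 6.89 and 6.88, then 5.63 and 5.58 with vit C (-1.28 ± 0.24, q = 0.00184), and 6.49 and 6.67, then 7.29, 7.44 and 6.78 in UT cells (difference of changes -1.86 ± 0.32, q = 0.0128). For both genes the vit C-treated arrays were lower at 96 than at 48 h and the UT arrays higher. The call for MT2A was lost without UT 48 h replicate 1 (-1.77), vit C 48 h replicate 1 (-1.86) or either vit C 96 h array (-1.89 and -1.84). Members of this family are nearly identical in sequence, so probes may read more than one of them.

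Promoters of metallothionein genes carry metal response elements, to which the zinc sensor MTF1 binds. The core, TGCACNC or TGCGCNC on either strand, was found in the promoters of MT2A (7 matches), MT1H (8), MT1X (4) and MT1B (3), all 4 metallothioneins with a promoter in the table, and in 37.7% of the 11533 tested genes that have one there. The 250 bases before the start of 3 of them are shown as examples of the shared motif, with matches in capitals and overlapping or adjacent matches running together. MT2A, MT1H and MT1X were called for the difference between treatments (-1.86, -1.46 and -1.21), MT1H except without vit C 96 h replicate 1 (-1.29) and MT1X in all but 6 of the 9 fits with 1 array left out (-1.36 to -1.06 in those 6). The windows are chr16:56608334-56608583 (plus strand) for MT2A, chr16:56669564-56669813 (plus strand) for MT1H and chr16:56682220-56682469 (plus strand) for MT1X.
MT2A: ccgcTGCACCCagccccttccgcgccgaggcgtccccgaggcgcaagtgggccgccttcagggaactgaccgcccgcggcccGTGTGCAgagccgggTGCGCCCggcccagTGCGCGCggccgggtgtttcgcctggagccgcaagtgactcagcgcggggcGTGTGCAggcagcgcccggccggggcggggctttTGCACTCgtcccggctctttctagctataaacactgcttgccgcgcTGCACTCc
MT1H: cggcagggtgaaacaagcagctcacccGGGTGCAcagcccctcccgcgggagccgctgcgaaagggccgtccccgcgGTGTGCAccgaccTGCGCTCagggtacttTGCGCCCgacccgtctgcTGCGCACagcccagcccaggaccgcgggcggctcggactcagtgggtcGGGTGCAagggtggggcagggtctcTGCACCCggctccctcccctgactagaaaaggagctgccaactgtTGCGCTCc
MT1X: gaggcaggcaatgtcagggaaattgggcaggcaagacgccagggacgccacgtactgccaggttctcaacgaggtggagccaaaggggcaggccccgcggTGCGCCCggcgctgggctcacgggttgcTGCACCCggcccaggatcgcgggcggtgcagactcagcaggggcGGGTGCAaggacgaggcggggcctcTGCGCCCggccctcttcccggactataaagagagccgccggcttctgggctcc
MTF1 itself had a difference of -0.66 with vit C, not called, and of -1.45 in UT cells.

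Some genes of serine synthesis and the amino acid response also had a lower change in vit C-treated than in UT cells. Of 21 genes of the unfolded protein and amino acid response 5 were called for a lower change in vit C-treated cells, against 0.654% of all genes tested, with none called without UT 48 h replicate 2, vit C 48 h replicate 1 or vit C 96 h replicate 1, 2 without vit C 48 h replicate 2 or vit C 96 h replicate 2, and 3 and 8 without replicates 2 and 3 of UT 96 h. The 5 were PSAT1, ASNS, PHGDH, TRIB3 and CHAC1, the last 4 named after their values were seen. PSAT1, an enzyme of serine synthesis, read 4.39 and 4.13 at 48 h and 4.02 and 4.52 at 96 h with vit C, a difference of 0.01 ± 0.38, and 2.20 and 1.104, then 5.23, 4.38 and 4.15 in UT cells. The asparagine synthetase gene ASNS read 6.16 and 5.94, then 5.23 and 5.41 with vit C, and 4.45 and 3.68, then 6.90, 5.88 and 5.53 in UT cells (difference of changes -2.77, q = 0.0122). Another ASNS probe gave 0.56 with vit C, against -0.73 here. The vit C-treated arrays of 48 h lay within the range of the UT arrays of 96 h for ASNS, and for PSAT1 1 of 2 did, the other being 4.13 against a lowest UT value of 4.15. CTH, which makes cysteine, differed in the same direction (-2.87 ± 0.49, q = 0.0131). Calls for PSAT1, ASNS and CTH were lost without UT 48 h replicate 2 (-2.37, -2.39 and -2.54), vit C 48 h replicate 1 (-2.79, -2.67 and -2.58) or vit C 96 h replicate 1 (-2.67, -2.69 and -2.69), and those of PHGDH, TRIB3 and CHAC1 in 6, 5 and 6 of the 9 fits. In this list CALR and PDIA4, chaperones of the endoplasmic reticulum, were the only members called higher with vit C, by 1.03 and 1.13. CALR fell just short without vit C 48 h replicate 2 (0.99) or vit C 96 h replicate 1 (1.00), and PDIA4 lost its call without any 1 of the 4 arrays (1.01 to 1.25).

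Iron handling genes gave 4 of 16 higher (2 without vit C 48 h replicate 1, 1 without vit C 96 h replicate 2) and 1 lower. The fallen share, and the risen share in the last case, were near the 6.21% and 6.78% of all genes tested. Hepcidin (HAMP), the hormone that blocks iron export, read -3.07 and -2.96 at 48 h and -0.23 and -0.43 at 96 h (2.69 ± 0.18, q = 2.24e-07). In UT cells it read -1.34 and -1.39, then -1.92, -2.05 and -1.94 (difference of changes 3.29 ± 0.24, q = 1.66e-05). The 96 h arrays of vit C-treated cells were above all other arrays of these 4 groups. At 8 and 24 h the mean of vit C-treated cells was -0.56 and -0.57, so HAMP was lower at 48 h than at the times before and after. CYBRD1, a ferric reductase that uses ascorbate as electron donor, rose by 1.48 ± 0.36 (q = 0.0104, lost without vit C 48 h replicate 1, 1.27, or vit C 96 h replicate 2, 1.34), and the mitochondrial iron importer SLC25A37 fell by 1.52 ± 0.19 (q = 8.13e-05).

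Heat shock proteins gave 3 of 14 higher (2 with normexp background correction) and none lower, against 6.78% and 6.21% of all genes tested. HSPA6, a strictly inducible member of the HSP70 family, went from -2.56 and -2.64 to -0.43 and -0.80 (1.98 ± 0.30, q = 3.76e-04), with -0.33 in UT cells (difference of changes 2.31, q = 0.0138, lost without UT 48 h replicate 2, 2.05, vit C 48 h replicate 1, 2.35, or vit C 96 h replicate 1, 2.13). HSP90AA1 rose by 1.25 ± 0.21 (q = 9.91e-04), with -0.15 in UT cells (difference 1.40, q = 0.0286), a call lost in 6 of the 9 fits with 1 array left out (1.24 to 1.56), and its probes gave 0.23 to 1.61.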

How the data were processed

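RNA of PMA-differentiated THP-1 cells was hybridized to 19 one-colour Agilent arrays, 1 sample each. The authors deposited spot intensities extracted with Agilent Feature Extraction (10.5.1.1 per the file headers) and a matrix of log2 values shifted to the 75th percentile of each array. Per the file headers the processed intensity is already detrended. Here it was taken to log2, spots of a probe were averaged (50238 probes, 31033 gene names) and each array's 75th percentile was subtracted. The deposited log2 values, an alternative here, differed from this by 1 constant per array except for 57 probes that departed from it by over 0.01. A gene was tested (22626 of them, 34662 probes) if a probe was well above background on every vit C-treated array of 48 h or of 96 h, and took the value of its brightest probe. Of their names, 14995 are current or older RefSeq symbols.

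In R 4.3.3, limma 3.58.1 was run on the 19 arrays with 1 mean for each of 8 groups (data.table version 1.17.8), 2-sided, with Benjamini-Hochberg adjustment over all genes tested. A call needs a log2 difference of at least 1 with q no higher than 0.05, as in the study's methods. For a gene below background in one group, "at least N-fold" sets the brighter group's mean against the lowest signal well above background. Named genes are the 12 largest rises and falls on all 4 arrays without overlap, the 4 largest bounds each way, up to 3 called members per list each way (or the 2 brightest where none was called), and the 5 largest differences between treatments each way, all but list members with a current or older symbol. Some named genes are given by their list counts alone. Some items are not reported here. The members, gene lists and tests were chosen with earlier results of these data known. Alternatives were another background correction, normalization, filter, probe rule, test, block and samples, and each array left out. Where leaving out an array left 1 in a group, its spread was taken from the remaining groups. The model was tested on simulated data. The number of arrays, 2 or 3 per group, limits the precision. Promoters are from RefSeq (GRCh38.p14). Python 3.11.15, pandas 2.3.3 and matplotlib 3.10.9 were used for promoters and figures.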

Additional observations from a re-analysis of the deposited data

Results flagged for a closer look

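The 10 genes below, measured on all 9 arrays of the 4 groups, are given because the change from 48 to 96 h differed between vit C-treated and UT cells by an interaction test in limma. They are the 5 largest differences in each direction. In a fit of only the 9 arrays the calls of IL33 (q = 0.0605), MT1M (0.163), ALPK2 (0.226), CTSL3 (0.265), PSAT1 (0.202) and CTH (0.205) were lost, and with the methods' t-test those of TNFRSF11B and TSLP (both 0.0541) as well, while ACTG2 and HAMP were called in both. In each the slide of the vit C-treated 96 h arrays enters in full, and its part in the difference was not tested.

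IL33, an alarmin cytokine, rose with vit C (-3.10 and -3.10 at 48 h, -0.33 and -0.56 at 96 h) and was lower at 96 h in UT cells (-2.46 and -2.24, then -4.23, -3.22 and -3.32), a difference of 3.90 (q = 0.0040). ACTG2, a smooth muscle actin, went from -1.83 and -1.97 to -0.26 and -0.44 with vit C and from 2.10 and 1.97 to -0.40, -0.31 and 0.02 in UT cells, a difference of 3.81 (q = 1.11e-05), so the treatments were far apart at 48 h and met at 96 h. TNFRSF11B (osteoprotegerin, a decoy receptor for RANKL) was at -3.21 and -3.44, then -2.33 and -2.38 with vit C, and at 0.09 and 0.21, then -2.74, -2.90 and -2.32 in UT cells, a difference of 3.77 (q = 0.0047). Over all alternatives the difference lay between 2.12 and 4.54 for IL33 and between 1.91 and 3.935 for TNFRSF11B. HAMP gave 3.29 (q = 1.66e-05). TSLP, an epithelial-type cytokine, gave 2.73 (q = 0.0036), with differences of -0.83 with vit C and -3.56 in UT cells.

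In the other direction MT1M gave -3.49 (q = 0.0040). ALPK2, a kinase, gave -3.29 (q = 0.0211), with a difference of -0.30 with vit C and 2.99 in UT cells, and its call was lost without UT 48 h replicate 2 (-2.87), vit C 48 h replicate 1 (-3.14) or either vit C 96 h array (-3.11 and -3.46). CTSL3 (now CTSL3P, a cathepsin pseudogene) gave -3.06 (q = 0.0462) and lost its call without any 1 of 7 of the 9 arrays. PSAT1 gave -2.92 (q = 0.0146) and CTH -2.87 (q = 0.0131). CTH fell with vit C from 2.76 and 2.18 to 0.95 and 1.31, a call lost without vit C 48 h replicate 1 (-1.05) or either array of 96 h (-1.16 and -1.52). The leave-one-out fits in which PSAT1 and CTH lost the difference are given with the amino acid response genes.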

How the results depend on the processing

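For genes called between 96 and 48 h with vit C (2937), the count was 2738 with normexp, 3028 with quantile normalization, 2776 with the slide as a random block, and 5513 with no filter on dim probes. For UT cells (2928) it was 1524 with normexp, 568 with a fit of only the groups compared and 1885 with slide as a fixed term, an alternative chosen after seeing the data that could not be fitted for vit C. For the difference of the 2 changes (333) it was 208 with no filter and 7 with only the groups compared. With the methods' t-test and Benjamini-Hochberg adjustment the counts were 1, 29 and 12, and at its unadjusted p 3134, 2027 and 1192. With the replicate number as a block they were 2776, 2568 and 174, although same-numbered arrays did not deviate together (correlations of deviations -0.04 with vit C, 0.04 and -0.26 in UT cells). Leaving out each array gave 1823 to 2186 with vit C, 1999 to 3698 in UT cells and 53 to 1058 for the difference. With normexp the difference between 96 and 48 h reversed for RSAD2 (-0.072), CCL18 (-0.47), CP (-0.59), FGL2 (-0.11), JMJD2D (-0.48), PF4 (-0.067), LOX (-0.30) and CLEC7A (-0.33), and that of the 2 changes for CP (-0.16). The cause was not tested. No other call of a named gene reversed, but some values that were not called changed sign, as did medians of some lists, for example TNFRSF11B (-0.055) and the class II and CD1 list (-0.28) with normexp. The alternatives for the difference of changes of single genes and for the counts of called list members were also added after seeing the data. Genes dim in 1 group have only a bound.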

Other observations

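Some genes outside the lists were called between 48 and 96 h with vit C and are given as values, chosen after these were seen and not recomputed with arrays left out. The cancer-testis family VCX, VCX2 and VCX3A rose by 3.09, 3.03 and 3.00, and by 3.13, 3.02 and 3.04 in UT cells. Their sequences are nearly identical, so a probe may read more than one of them, and the probes of VCX2 gave 1.04 to 3.03. The eosinophil-type ribonucleases RNASE2 and RNASE3 rose by 2.14 and 2.32, against 1.30 and 1.45 in UT cells. TGFBI, a matrix protein of macrophages, went from 5.26 and 5.28 to 7.35 and 7.60 (log2 difference 2.21, limma q = 3.03e-07), with 1.63 in UT cells.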
